A study of Mus musculus with 10 samples.

Results

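The 10 neuropeptide genes Grp, Nmb, Cck, Gal, Npy, Tac1, Vip, Sst, Adcyap1 and Nts were followed by gene symbol through the 35288 genes of an RNA-sequencing table of small cell lung cancers, aggressive neuroendocrine tumors, grown in genetically altered mice. Each symbol matched 1 gene. Calca, the calcitonin gene, is the dominant peptide gene of these tumors and was left aside except as a yardstick.

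The libraries form 4 groups. In both genotypes Rb1, Trp53 and Rbl2, which restrain the cell cycle, are deleted in the lung, a model called RPR2. The second genotype, RPR2;Nfibf/f, also carries floxed alleles of Nfib, a transcription factor gene of the nuclear factor I family, and is called Nfib-floxed here. There were Nfib-floxed liver metastases (n = 2, mice JHK1398 and JHK1399), RPR2 liver metastases (n = 2, JHK1373 and JHK1394), Nfib-floxed lung tumors (n = 3, JHK997, JHK1398 and JHK1399) and RPR2 lung tumors (n = 3, JHK1373, JHK1394 and JHK1548). Thus 6 mice were used, and 4 of them gave both tissues. The labels do not give age, sex, the Cre that deletes the genes or the part of Nfib that is floxed. Tumors were cut out by eye from sick mice, so each library is bulk tissue, and fewer cells of a type and less RNA per cell cannot be told apart.

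Neuropeptides are cut from larger precursors in the secretory granules of neurons and neuroendocrine cells, and most act on G protein-coupled receptors of the same or nearby cells. Gastrin-releasing peptide (Grp) and neuromedin B (Nmb) are the mammalian relatives of the frog peptide bombesin, and in human small cell lung cancer lines GRP is known as an autocrine growth factor. Pulmonary neuroendocrine cells, which are a cell of origin of this cancer, carry GRP in human lung and calcitonin gene-related peptide in mouse lung.

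Stretches of DNA before the transcription start are given to show what the members share in sequence. The sequences are from RefSeq on build GRCm38.p6, read in the direction of the gene. The 250 bases before the start were searched on both strands, in 9 of the 10 members, for letters bound by known factor families. The member not searched was Grp, so nothing is said here about its promoter. Nfib is the gene altered in the study, and its family recognises the letters TTGGC, which read GCCAA on the opposite DNA strand. It occurred in 3 of the 9 members (Nmb, Gal and Sst) and in 41.5% of 32851 promoter windows of this length. Capitals mark these letters in Nmb (chr7:80905063-80905312, minus strand), Gal (chr19:3414545-3414794, minus strand) and Npy (chr6:49822460-49822709, plus strand), which holds none:
Nmb: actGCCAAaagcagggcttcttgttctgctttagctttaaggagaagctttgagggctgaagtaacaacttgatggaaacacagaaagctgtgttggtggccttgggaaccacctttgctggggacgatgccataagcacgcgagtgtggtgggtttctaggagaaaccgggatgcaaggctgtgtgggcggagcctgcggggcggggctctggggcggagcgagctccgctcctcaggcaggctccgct
Gal: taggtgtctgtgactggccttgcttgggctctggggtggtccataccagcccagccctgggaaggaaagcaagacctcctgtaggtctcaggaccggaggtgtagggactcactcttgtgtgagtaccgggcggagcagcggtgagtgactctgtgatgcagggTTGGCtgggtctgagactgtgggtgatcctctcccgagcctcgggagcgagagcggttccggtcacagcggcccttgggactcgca
Npy: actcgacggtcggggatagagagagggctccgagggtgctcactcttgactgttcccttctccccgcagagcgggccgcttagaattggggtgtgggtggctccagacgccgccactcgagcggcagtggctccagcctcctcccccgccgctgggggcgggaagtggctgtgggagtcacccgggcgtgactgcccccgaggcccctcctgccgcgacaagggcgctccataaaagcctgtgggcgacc
These are 3 of the 4 members with a mean level of at least 1 TPM, and the remaining one, Grp, was not searched.

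The cyclic AMP response element, bound by CREB-family factors, is a textbook feature of the somatostatin and VIP promoters. Its core TGACGTC was also searched as its reverse complement. It occurred in 3 of the 9 members and in 2.78% of windows. The shorter form TGACG, which lies inside the core, occurred in 6 members and in 17.8% of windows. The members with the core were Vip (chr10:5639128-5639156, plus strand), Sst (chr16:23890875-23890903, minus strand) and Adcyap1 (chr17:93198915-93198943, plus strand), with the core in capitals:
Vip: gatcactactgTGACGTCtttcggggagc
Sst: gcctccttggcTGACGTCagagagagagt
Adcyap1: gactaggatgcTGACGTCttttactgata
Each of these 3 genes stayed at or under 0.467 TPM in every library, so in these tumors the members with the core were among the lowest. A match of letters is a description and not evidence of binding.

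Levels are in TPM, a unit scaled for transcript length and for library size. The values of any library add up to 1000000, so the depth behind a value is unknown. A difference is between group means of log2(TPM + 1), which understates changes at low levels, and is given ± its standard error from limma. Tests covered the 15503 genes that averaged 1 TPM or more across libraries, with p adjusted by Benjamini-Hochberg over all of them, and an adjusted p under 0.05 is called passing. The labels name separate mice within each group, but the lung tumor and metastasis of 1 mouse share their animal.

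All libraries held neuroendocrine transcripts, with the granin gene Chga, a general neuroendocrine marker, at 126 to 863 TPM. Nfib had 46.1 and 41.3 TPM in Nfib-floxed metastases, 62.8 and 643 TPM in RPR2 metastases, 26.5 to 38.6 TPM in Nfib-floxed lung tumors and 28.3 to 118 TPM in RPR2 lung tumors. The lung groups overlapped, and since the floxed part is not given, a level for the whole gene checks the genotype little. Pearson's r of log2(TPM + 1) was taken between libraries across the genes tested. The Nfib-floxed metastasis of JHK1398 had a higher r with the RPR2 lung tumor of JHK1373 (0.932) than with the Nfib-floxed metastasis of JHK1399 (0.916). The Nfib-floxed lung tumors of JHK997 and JHK1398 were likewise closest to an RPR2 lung tumor, of JHK1373 (0.907) and of JHK1548 (0.887). Such a match was therefore not particular to that metastasis, and whether its label is right was not settled. The lung tumors of JHK1398 (Nfib-floxed) and JHK1394 (RPR2) stood apart by markers of normal lung: 8 club cell markers summed to 56704 and 62083 TPM there, against 2106 to 13328 TPM in the other lung tumors. The 12 hepatocyte markers summed to 118 and 3003 TPM in Nfib-floxed metastases, 10289 and 10335 TPM in RPR2 metastases, and 104 to 1264 TPM in lung tumors of either genotype.

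The 10 genes were weakly expressed beside Calca. Their summed level was 16.5 and 17.3 TPM in Nfib-floxed metastases, 22.0 and 18.5 TPM in RPR2 metastases, 18.2 to 41.0 TPM in Nfib-floxed lung tumors and 13.1 to 95.3 TPM in RPR2 lung tumors. Calca alone had 545 to 71946 TPM, which was 24.8 to 3333 times the sum of the 10 in the same library. By mean level over the 10 libraries the order was Nmb (10.6 TPM), Npy (9.87), Grp (4.22), Gal (2.35) and Cck (0.901), and the other 5 had means of 0.0359 to 0.244 TPM. Nmb, the highest, ranked 10175 among the 35288 genes. The ranges of Nmb, Npy, Grp and Gal overlapped, and the place of Npy in the order rests on 1 library.

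The leading gene was not the same in all tumors. Nmb was highest of the 10 in 7 libraries. Npy made up 46.5% of the sum in the Nfib-floxed lung tumor of JHK1398 and 83.7% in the RPR2 lung tumor of JHK1394. In the RPR2 metastasis of JHK1373, Grp made up 63.8%. The number of members above 1 TPM was 1 or 2 in the metastases and 3 to 5 in the lung tumors.

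**Figure D1:**
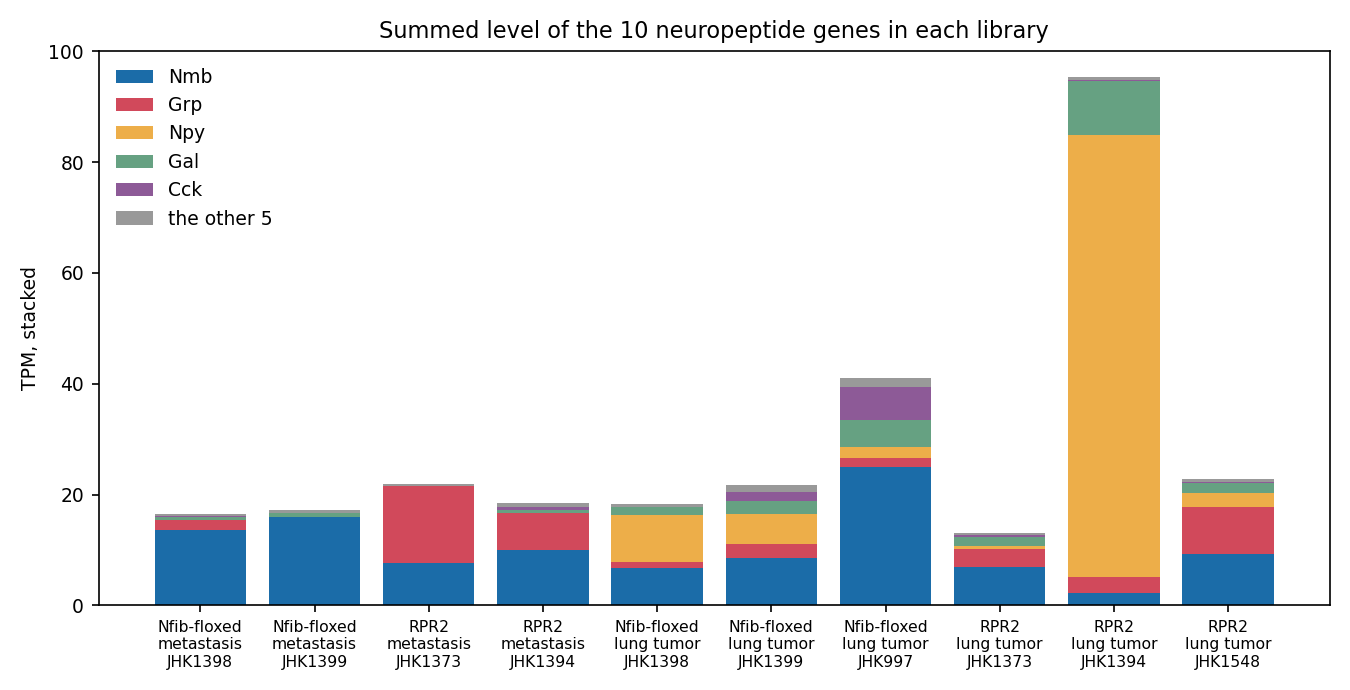
Stacked TPM of the neuropeptide genes (vertical axis) in each of the 10 libraries (horizontal axis, group and mouse). The bars lie between 13.1 and 41.0 TPM, except that of the RPR2 lung tumor of JHK1394 at 95.3 TPM, most of it Npy.

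Of the 10 members 4 passed the filter on low values (Nmb, Npy, Grp and Gal), and 6 did not. Npy and Gal passed only through the lung tumors. In Nfib-floxed and RPR2 metastases Npy averaged 0 TPM and Gal 0.574 and 0.283 TPM. In lung tumors of those genotypes Npy averaged 5.31 and 27.6 TPM, and Gal 2.85 and 4.43 TPM. Their lower levels in metastases are therefore descriptions of genes that were selected through the lung. By limma, 0 members passed in each of the 5 comparisons. In lung tumors, Nfib-floxed against RPR2, the background over all genes tested was 0%, and no member had an unadjusted p under 0.05, against 7.93% of all genes. In liver metastases, Nfib-floxed against RPR2, 2.04% of all genes passed, and 1 member (Grp) had an unadjusted p under 0.05, against 12.8% of genes. In metastases against lung tumors of RPR2 mice 5.61% of genes passed, and 2 members (Gal and Npy) had an unadjusted p under 0.05, against 18.8% of genes. In the same comparison of Nfib-floxed mice 0.123% of genes passed, and no member had an unadjusted p under 0.05, against 9.39% of genes. In the interaction, the genotype difference in metastases minus that in lung tumors, 0.581% of genes passed, and no member had an unadjusted p under 0.05, against 9.68% of genes. With 4 members tested, shares of the members are not set against these percentages.

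**Figure D2:**
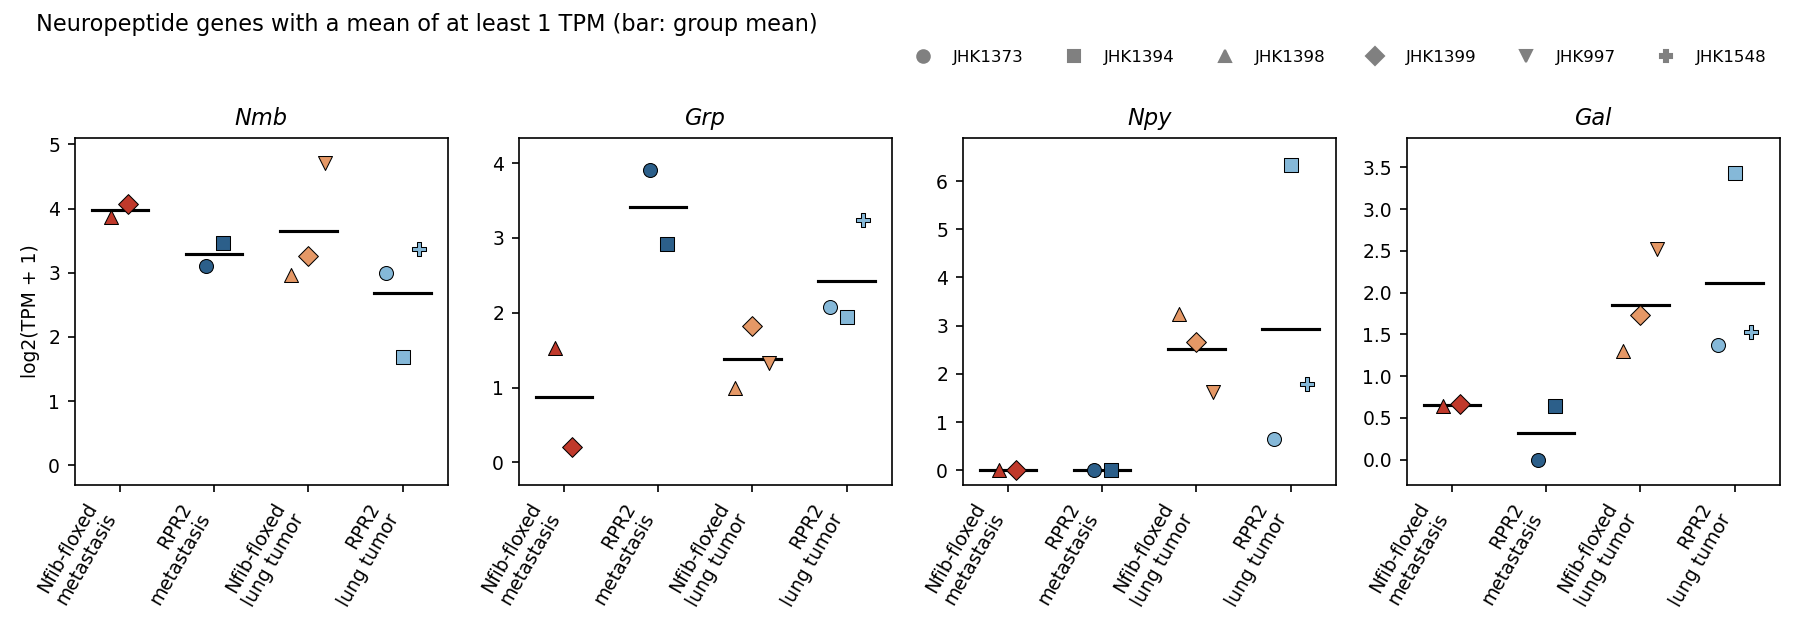
Level of the 4 members that passed the filter, as log2(TPM + 1) (vertical axis), in the 4 groups (horizontal axis); each point is a library, its shape the mouse, and the bar the group mean. Grp is lower in all 5 Nfib-floxed than in all 5 RPR2 libraries, Npy is at 0 in all 4 metastases, and the RPR2 lung tumor of JHK1394 is highest for Npy and Gal.

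Among the bombesin-like peptides, Grp (ENSMUSG00000024517, chromosome 18, 65872820 to 65886596, plus strand, build GRCm38) had lower values in Nfib-floxed tumors of both tissues. It had 1.88 and 0.154 TPM in the Nfib-floxed metastases of JHK1398 and JHK1399, against 14.0 and 6.56 TPM in the RPR2 metastases of JHK1373 and JHK1394. In lung tumors it had 1.51, 0.988 and 2.52 TPM in the Nfib-floxed mice JHK997, JHK1398 and JHK1399, against 3.24, 2.85 and 8.45 TPM in the RPR2 mice JHK1373, JHK1394 and JHK1548. All 5 Nfib-floxed libraries lay below all 5 RPR2 libraries, a pattern in that direction at 0.922% of all genes tested. Within tissues, that order was seen at 22% of genes in metastases and 8.81% in lung tumors.

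By group, Grp averaged 1.02 ± 1.22 TPM in Nfib-floxed metastases and 10.3 ± 5.27 TPM in RPR2 metastases (SD, n = 2 each), a log2 difference of -2.55 ± 0.66 (limma, adjusted p = 0.0812). It averaged 1.67 ± 0.781 TPM in Nfib-floxed lung tumors and 4.85 ± 3.13 TPM in RPR2 lung tumors (SD, n = 3 each), a log2 difference of -1.04 ± 0.54 (limma, adjusted p = 0.634), and of -0.64 without the RPR2 lung tumor of JHK1548. Without the Nfib-floxed metastasis of JHK1398, the difference in metastases was -3.21 (limma, adjusted p = 0.0932). The genotype differences of both tissues were not distinguishable from each other (interaction -1.50 ± 0.85, adjusted p = 0.654). Neither difference held up against the spread once adjusted over all genes. Averaged over both tissues with mouse as a random effect, a test added after the values were seen, the log2 difference was -1.81 ± 0.43 (limma, unadjusted p = 0.00173, adjusted p = 0.112), where 0.587% of all genes passed. The adjusted p lay between 0.0578 and 0.278 over the alternative settings of that test. With 1 value per mouse, a two-sided exact permutation test gave p = 0.1, the smallest that 20 arrangements of 3 against 3 mice allow.

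In RPR2 mice Grp was higher in the metastasis than in the lung tumor of the same mouse in both JHK1373 and JHK1394, and among Nfib-floxed mice it was higher in that of JHK1398 and lower in that of JHK1399. The RPR2 tissue difference was 0.99 ± 0.60 (limma, adjusted p = 0.430), and 0.50 without the RPR2 metastasis of JHK1373. The annotation places an antisense gene over Grp. Nothing in the sources used here says whether strand was kept, and without strand the reads of both genes cannot be told apart.

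Nmb (ENSMUSG00000025723, chromosome 7, 80902227 to 80905076, minus strand), which encodes neuromedin B, was present in all 10 libraries. It had 13.6 and 15.9 TPM in Nfib-floxed metastases, against 7.62 and 10.03 TPM in RPR2 metastases. It had 25.1, 6.81 and 8.64 TPM in the Nfib-floxed lung tumors of JHK997, JHK1398 and JHK1399, against 6.96, 2.21 and 9.32 TPM in the RPR2 lung tumors of JHK1373, JHK1394 and JHK1548. The metastasis groups did not overlap, as was so in this direction at 23.8% of all genes, and the lung groups overlapped.

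The log2 difference in Nmb was 0.69 ± 0.67 in metastases (limma, adjusted p = 0.811) and 0.96 ± 0.55 in lung tumors (limma, adjusted p = 0.653). The value in metastases was 0.79 without the Nfib-floxed metastasis of JHK1398. That in lung tumors was 0.44 without the Nfib-floxed lung tumor of JHK997 and 0.47 without the RPR2 lung tumor of JHK1394. Over both tissues it was 0.83 ± 0.44 (limma, adjusted p = 0.460), or 0.55 without the lung tumor of JHK997. The exact permutation test over mice gave p = 0.1, the smallest that 3 against 3 mice allow. Thus Nmb and Grp had fitted genotype differences of opposite sign in both tissues, and none of them passed. In each of the 4 mice with both tissues, Nmb was higher in the metastasis than in the lung tumor, by 6.78 TPM in JHK1398, 7.25 in JHK1399, 0.654 in JHK1373 and 7.83 in JHK1394. That order held in all 4 mice for 7.94% of all genes, and the RPR2 tissue difference was 0.60 ± 0.61 (limma, adjusted p = 0.680), and 0.11 without the RPR2 lung tumor of JHK1394 and 0.95 without that of JHK1548. The gene overlaps Sec11a on the same strand, a signal peptidase gene with 66.2 to 125 TPM, so how reads are shared between them is uncertain.

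Npy (ENSMUSG00000029819, chromosome 6, 49822710 to 49829507, plus strand), which encodes the sympathetic and brain peptide neuropeptide Y, was listed at 0 in all 4 metastases and above 0 in all 6 lung tumors. It had 2.10, 8.47 and 5.35 TPM in the Nfib-floxed lung tumors of JHK997, JHK1398 and JHK1399, against 0.560, 79.8 and 2.45 TPM in the RPR2 lung tumors of JHK1373, JHK1394 and JHK1548. The genotypes overlapped in the lung, and the tumor of JHK1394 was far above the rest. Levels in metastases lay below those in lung tumors in all 4 mice with both tissues, as for 14% of all genes. Since the metastases are at 0, no fold is given. The adjusted p was 0.585 in Nfib-floxed mice and 0.256 in RPR2 mice (limma, unadjusted p = 0.0468 in RPR2 mice). Without the lung tumors of JHK1394 and JHK1398 the adjusted p was 0.240 in Nfib-floxed mice and 0.303 in RPR2 mice. Between genotypes over both tissues the adjusted p of Npy was 0.949 (limma), and the exact permutation test over mice gave p = 0.7.

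Npy was read beside markers of normal lung. The alveolar type 2 cell markers (8 genes in 9 table rows, surfactant genes among them) summed to 29.9 and 51.6 TPM in Nfib-floxed metastases, 20.7 and 61.8 TPM in RPR2 metastases, 177 to 3241 TPM in Nfib-floxed lung tumors and 291 to 8182 TPM in RPR2 lung tumors. Their highest values were those of the lung tumors of JHK1398 (3241 TPM) and JHK1394 (8182 TPM), which were also highest for Npy. The club cell markers were highest in the same tumors but did not follow Npy in the other lung tumors. They were lowest in that of JHK1399 (2106 TPM), which had 5.35 TPM of Npy. The RPR2 lung tumor of JHK1373 had 9907 TPM of them and 0.560 TPM of Npy. The 10 macrophage markers summed to 193 and 301 TPM in Nfib-floxed metastases, 651 and 296 TPM in RPR2 metastases, 632 to 1416 TPM in Nfib-floxed lung tumors and 586 to 4769 TPM in RPR2 lung tumors. Of that sum, Lyz2, which alveolar type 2 cells also express, was 3606 of 4769 TPM in the RPR2 lung tumor of JHK1394. Lyz2 had 191 and 367 TPM in the RPR2 lung tumors of JHK1373 and JHK1548. It had 168 to 537 TPM in Nfib-floxed lung tumors and 60.4 to 109 TPM in metastases. The part of these cells in the level of Npy was not tested.

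Markers of other cell types known to hold NPY were read too. Rodent megakaryocytes carry it, and 9 megakaryocyte and platelet markers summed to 13.3 and 65.4 TPM in Nfib-floxed metastases, 58.8 and 23.5 TPM in RPR2 metastases, 57.9 to 70.2 TPM in Nfib-floxed lung tumors and 29.4 to 56.7 TPM in RPR2 lung tumors. The lowest Nfib-floxed lung tumor (57.9 TPM) lay just above the highest RPR2 lung tumor (56.7 TPM), and only 6 of the 9 markers reached 1 TPM. These sums were not tested between genotypes. The ranges of both metastasis groups overlapped those of both lung groups. Sympathetic nerves also hold NPY, and 9 markers of sympathetic and other peripheral neurons summed to 42.9 and 262 TPM in Nfib-floxed metastases, 158 and 402 TPM in RPR2 metastases, 46.5 to 221 TPM in Nfib-floxed lung tumors and 14.1 to 109 TPM in RPR2 lung tumors. Of that list, Prph, an intermediate filament gene, had 8.91 to 325 TPM. Dbh, the noradrenaline-forming enzyme that is among their defining markers, was at most 0.125 TPM in any library. The part of these cells in the level of Npy was not tested either.

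**Figure D3:**
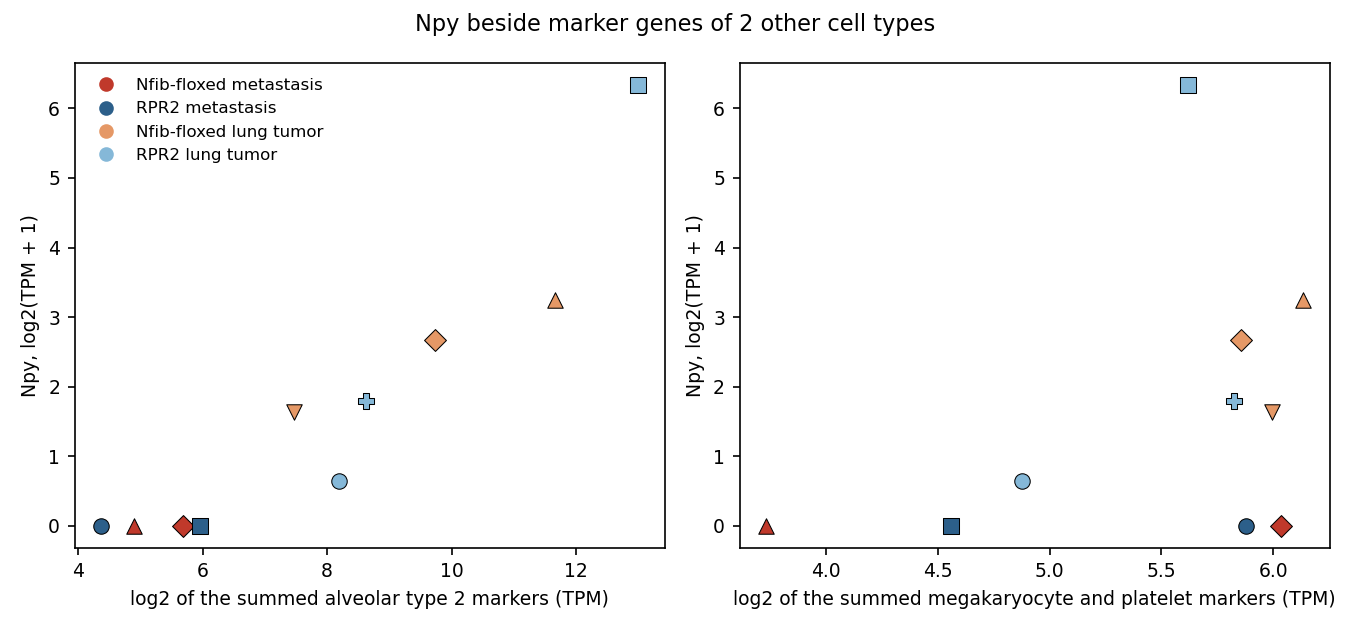
Npy as log2(TPM + 1) (vertical axes) against the log2 of the summed markers of alveolar type 2 cells (left) and of megakaryocytes and platelets (right), 1 point a library, colored by group, with shapes for mice as in the plot of the 4 members. The lung tumors of JHK1398 and JHK1394 are highest on both axes at left (3241 and 8182 TPM of markers), and at right the 4 metastases with Npy at 0 span 13.3 to 65.4 TPM.

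Gal (ENSMUSG00000024907, chromosome 19, 3409915 to 3414544, minus strand), which encodes the inhibitory peptide galanin, had lower values in metastases. It had 0.563 and 0.585 TPM in Nfib-floxed metastases and 0 and 0.565 TPM in RPR2 metastases. In lung tumors it had 4.76, 1.46 and 2.34 TPM in Nfib-floxed mice JHK997, JHK1398 and JHK1399 and 1.58, 9.82 and 1.88 TPM in RPR2 mice JHK1373, JHK1394 and JHK1548. All metastases lay below all lung tumors, and the genotypes overlapped within each tissue. Metastases lay below lung tumors without overlap at 14.8% of genes in Nfib-floxed mice and 31% in RPR2 mice. As for Npy, the lowering was seen in 4 of 4 mice. The log2 difference between metastases and lung tumors was -1.20 ± 0.66 in Nfib-floxed mice (limma, adjusted p = 0.615) and -1.79 ± 0.66 in RPR2 mice (limma, adjusted p = 0.167). Without the RPR2 lung tumor of JHK1394 the RPR2 difference was -1.12, and without the metastasis of JHK1398 the Nfib-floxed difference was -1.19. Over both tissues the genotype difference was 0.05 ± 0.47 (limma, adjusted p = 0.970), and the exact permutation test over mice gave p = 0.9.

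The other 6 members averaged under 1 TPM. Cck, which encodes the gut and brain peptide cholecystokinin, had 0.105 and 0.113 TPM in Nfib-floxed metastases and 0 and 0.533 TPM in RPR2 metastases. It had 6.002, 0 and 1.64 TPM in the Nfib-floxed lung tumors of JHK997, JHK1398 and JHK1399 and 0.277, 0.209 and 0.134 TPM in the RPR2 lung tumors of JHK1373, JHK1394 and JHK1548. A single library, that of JHK997, therefore carried most of it, and its mean of 0.901 TPM fell short of the filter.

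Among the remaining 5, Tac1, the precursor gene of substance P, reached 0.666 TPM and was listed at 0 in 5 libraries. Sst, which encodes the inhibitory hormone somatostatin, reached 0.467 TPM and was at 0 in 6 libraries. Nts, the neurotensin gene, reached 0.413 TPM and was at 0 in 1 library. Adcyap1, which encodes the peptide PACAP, reached 0.260 TPM and was at 0 in 7 libraries. Vip, which encodes vasoactive intestinal peptide, reached 0.185 TPM and was at 0 in 4 libraries. None of these 5 reached 1 TPM in any library, and no test was made of them.

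For each tested member, the genes with the most similar pattern were searched among the 11530 genes averaging 5 TPM or more, by Pearson's r of log2(TPM + 1) over the 10 libraries. These r are descriptions, because libraries share mice and normal tissue, and the first of many candidates is high by selection. Npy was most like Lyz2 (r = 0.975), a lysozyme gene of macrophages and alveolar type 2 cells, Psca (0.973), a surface antigen gene, and Slc34a2 (0.972), a phosphate transporter of alveolar type 2 cells. Gal was most like Dnajb11 (0.975), a chaperone of the endoplasmic reticulum, Srd5a3 (0.961) and Tmem126b (0.960). Nmb was most like Rbm12b2 (0.949), Mapk8ip3 (0.942) and Rabl6 (0.931), and Grp was most like Ube2d1 (0.939), Tex15 (0.924) and Coq3 (0.922). Ranked by Spearman's rho, 1 of the 3 names for Nmb and 0 of 3 for the other members were kept.

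The receptors of these peptides were read in the same libraries. Of 27 receptor genes 15 passed the filter on low values. The Grp receptor Grpr was at most 0.0612 TPM in any library, the related orphan receptor Brs3 at most 1.65 TPM, and the neuromedin B receptor Nmbr lay between 0.245 and 2.17 TPM. The galanin receptors Galr1, Galr2 and Galr3 reached 3.74, 5.02 and 4.201 TPM, and Galr2 and Galr3 did not pass, while Galr1 was too low to be tested. The substance P receptor Tacr1 reached 0.288 TPM, and its relatives Tacr2 and Tacr3 0.0647 and 0.0321 TPM.

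The main receptor of neuropeptide Y, Npy1r (ENSMUSG00000036437, chromosome 8, 66697192 to 66706792, plus strand), was higher than its ligand's gene in 9 of the 10 libraries. It had 52.7 and 48.4 TPM in Nfib-floxed metastases, against 9.20 and 9.39 TPM in RPR2 metastases. It had 70.8, 19.1 and 22.3 TPM in the Nfib-floxed lung tumors of JHK997, JHK1398 and JHK1399, against 78.5, 75.1 and 98.3 TPM in the RPR2 lung tumors of JHK1373, JHK1394 and JHK1548. Nfib-floxed lay above RPR2 in metastases and below it in lung tumors, without overlap in either tissue, as was so in those directions at 23.8% and 8.81% of genes.

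Within RPR2 mice Npy1r fell in metastases by 3.04 ± 0.48 on the log2 scale (limma, adjusted p = 0.00559), and the adjusted p was 0.0525 without the RPR2 metastasis of JHK1394. The median log2 change of all genes in that comparison was -0.15. The genotype difference was 2.32 ± 0.53 in metastases (limma, adjusted p = 0.0528) and -1.39 ± 0.43 in lung tumors (limma, adjusted p = 0.595). The difference between those 2 values, the interaction, was 3.71 ± 0.68 (limma, adjusted p = 0.0437). That call was lost, with an adjusted p of 0.0704 to 0.166, when any single library other than the lung tumor of JHK997 was left out, and with mouse as a fixed block (4.17, adjusted p = 0.0760). Among the other receptors of the family, Npy5r had 0.579 to 10.3 TPM, Npy2r and Npy4r were at most 0.122 TPM, and Npy6r was listed at 0 throughout. Hepatocyte markers were high in the same RPR2 metastases in which Npy1r was low (10289 and 10335 TPM), and their part in the fall was not tested.

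**Figure D4:**
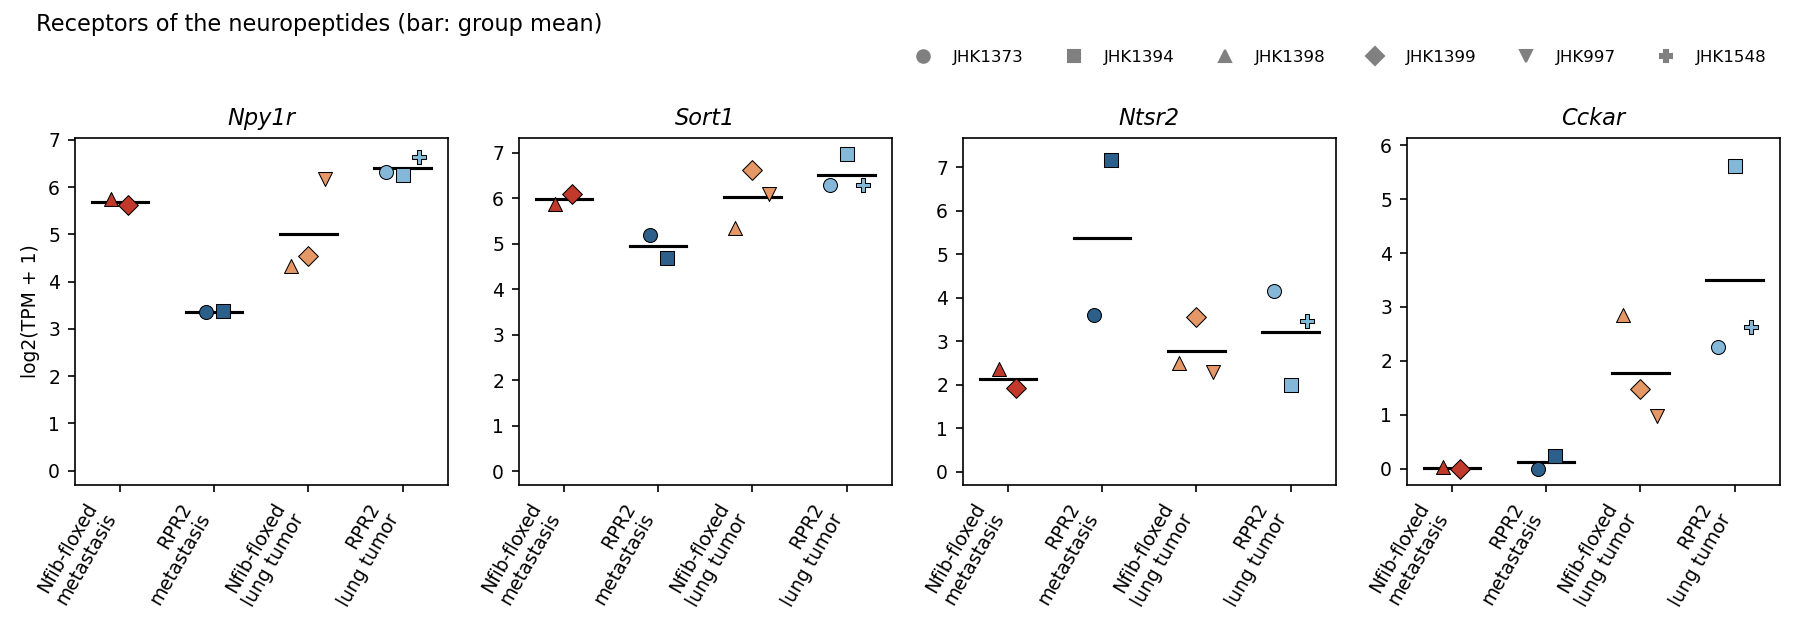
Level of 4 receptor genes as log2(TPM + 1) (vertical axis) in the 4 groups (horizontal axis), with points, shapes and bars as in the plot of the members. Npy1r is lowest in the 2 RPR2 metastases (9.20 and 9.39 TPM), Ntsr2 is highest in the RPR2 metastasis of JHK1394 (143 TPM), and Cckar is highest in the RPR2 lung tumor of JHK1394 (47.9 TPM).

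Of the neurotensin receptors, Sort1, a sorting receptor that also binds neurotensin, was abundant. It had 57.3 and 67.6 TPM in Nfib-floxed metastases, against 35.5 and 24.9 TPM in RPR2 metastases. Nfib-floxed lung tumors had 67.1, 39.7 and 97.8 TPM of it, against 77.4, 124 and 77.8 TPM in RPR2 lung tumors. It fell in RPR2 metastases against RPR2 lung tumors by 1.58 ± 0.40 on the log2 scale (limma, adjusted p = 0.0449). The call was lost under 13 of 24 alternatives, with an adjusted p of 0.0602 to 0.306 when any single library was left out other than the Nfib-floxed lung tumors of JHK1398 and JHK1399, and 0.111 with mouse as a fixed block. Ntsr2 had 4.11 and 2.77 TPM in Nfib-floxed metastases, 11.1 and 143 TPM in RPR2 metastases and 2.98 to 16.7 TPM in lung tumors, so that a single metastasis stood out, and no comparison passed. Ntsr1 was at most 0.0217 TPM.

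Of the cholecystokinin receptors, Cckar was lung-weighted like Npy. It had 0.0202 and 0 TPM in Nfib-floxed metastases, against 0 and 0.174 TPM in RPR2 metastases. Nfib-floxed lung tumors had 0.974, 6.21 and 1.80 TPM of it, against 3.77, 47.9 and 5.19 TPM in RPR2 lung tumors. Its log2 difference of -3.38 ± 0.91 between RPR2 metastases and lung tumors did not pass (limma, adjusted p = 0.0582). Cckbr reached 2.62 TPM.

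Of the 5 somatostatin receptors, all except Sstr4 had a higher mean level than the somatostatin gene itself. Sstr1 had 11.9 and 26.2 TPM in Nfib-floxed metastases, against 0.438 and 0.847 TPM in RPR2 metastases. Nfib-floxed lung tumors had 65.9, 0.881 and 3.04 TPM of it, against 20.9, 7.96 and 15.8 TPM in RPR2 lung tumors. Sstr2, the receptor used as an imaging target in human neuroendocrine tumors, was present in all libraries at 2.58 to 15.5 TPM. Sstr3 had 0.178 to 20.7 TPM, Sstr5 0.389 to 29.4 TPM, and Sstr4 at most 0.299 TPM. Sstr4 was too low to be tested, and none of the other 4 passed the threshold. Of the receptors for VIP and PACAP, Vipr1 had 3.71 to 19.0 TPM, Vipr2 0.425 to 3.64 TPM, and Adcyap1r1 0.00928 to 9.66 TPM with its highest value in the RPR2 metastasis of JHK1394. None of these passed either.

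Of the 15 receptor genes tested, none passed between genotypes in lung tumors or in metastases, and 2 and 5 had an unadjusted p under 0.05. Over all genes, 0% and 2.04% passed there, and 7.93% and 12.8% had such a p. In RPR2 metastases against lung tumors 2 fell, none rose and 13 did not pass, with a median log2 change of -0.26 against -0.15 over all genes. There 5.61% of all genes passed, and 7 of the 15 receptor genes had an unadjusted p under 0.05, against 18.8% of all genes. In Nfib-floxed mice none passed, and none had an unadjusted p under 0.05, against 9.39% of all genes. In the interaction 1 was higher and 14 did not pass, with a median of 0.83 against 0.11 over all genes, of which 0.581% passed. An unadjusted p under 0.05 was found there for 4 of the 15, against 9.68% of all genes.

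The machinery that makes active peptides was present in all groups. All 14 prohormone-processing genes passed the filter. Those with the highest means were Pam, the amidating enzyme (120 to 939 TPM), Cpe, a carboxypeptidase (137 to 577 TPM), Pcsk1, prohormone convertase 1 (26.8 to 596 TPM), and Scg5, a chaperone of convertase 2 (137 to 596 TPM). In RPR2 mice Pcsk1 fell to 26.8 and 122 TPM in metastases, against 435, 596 and 330 TPM in lung tumors, a log2 change of -2.92 ± 0.69 (limma, adjusted p = 0.0335). The change was -1.85 (adjusted p = 0.310) without the RPR2 metastasis of JHK1373, and the adjusted p was 0.0772, 0.113 and 0.0548 without the RPR2 lung tumor of JHK1373, of JHK1394 and of JHK1548. The other 13 did not pass there, and none of the 14 passed in the other 4 comparisons, where 1, 5, 1 and 1 had an unadjusted p under 0.05 (lung tumors, liver metastases, tissue in Nfib-floxed mice, interaction). Over all genes, 7.93%, 12.8%, 9.39% and 9.68% had such a p in those 4, and 5.61% passed in RPR2 metastases against lung tumors. In that last comparison 5 of the 14 had such a p, against 18.8% of all genes. The median change in RPR2 metastases was -0.75 against -0.15 over all genes. Hepatocyte markers were high in the same metastases (10289 and 10335 TPM). The 12 neuroendocrine markers summed to 2778 and 3876 TPM there, against 13166 to 22508 TPM in RPR2 lung tumors. Of these sums Calca alone was 545 and 1410 TPM, against 9162 to 18196 TPM. The part of tissue mixture in the falls of Pcsk1 and Sort1 was not tested.

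Peptidases that break down neuropeptides included 2 genes that passed. Enpep, aminopeptidase A, had 159 and 65.4 TPM in Nfib-floxed metastases, against 8.59 and 4.14 TPM in RPR2 metastases. It had 40.5, 47.6 and 19.3 TPM in Nfib-floxed lung tumors, against 44.0, 186 and 79.7 TPM in RPR2 lung tumors. The genotype difference in metastases was 3.88 ± 0.69 (limma, adjusted p = 0.0210), and that adjusted p was 0.121, 0.0510 and 0.151 without the metastasis of JHK1398, of JHK1373 and of JHK1394. In RPR2 mice Enpep fell in metastases by 3.64 ± 0.63 on the log2 scale (adjusted p = 0.00801, and 0.0971 without the RPR2 metastasis of JHK1394). The interaction was 5.23 ± 0.89 (adjusted p = 0.0331), lost under 14 of 23 alternatives and at an adjusted p of 0.101 with mouse as a fixed block. The interaction was also lost, with an adjusted p of 0.0512 to 0.155, when any single library was left out other than the Nfib-floxed metastasis of JHK1399 and the RPR2 lung tumor of JHK1373.

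Ace, the angiotensin-converting enzyme, which also cleaves substance P and neurotensin, fell to 1.47 and 2.83 TPM in RPR2 metastases, against 31.6, 76.0 and 19.6 TPM in RPR2 lung tumors. The log2 change was -3.60 ± 0.74 (limma, adjusted p = 0.0179), with an adjusted p of 0.147, 0.0920 and 0.0628 without the RPR2 metastasis of JHK1373, that of JHK1394 and the RPR2 lung tumor of JHK1394. Endothelium also carries Ace, and the 8 endothelial markers summed to 47.3 and 54.4 TPM in RPR2 metastases, against 610 to 683 TPM in RPR2 lung tumors. Of that sum, Vwf alone was 16.8 and 19.8 TPM in RPR2 metastases, against 522 to 638 TPM in RPR2 lung tumors. The part of endothelium in the fall of Ace was not tested. Nor was that of hepatocytes, whose markers were high in the same metastases, in the falls of Enpep and Ace. Of the 11 peptidases tested, 2 fell in RPR2 metastases, 1 rose in the Nfib-floxed ones against the RPR2 ones, 1 passed in the interaction, and none passed in lung tumors or between tissues of Nfib-floxed mice, where 2 and 2 had an unadjusted p under 0.05. Over all genes, 7.93% and 9.39% had such a p there. In RPR2 metastases against lung tumors, metastases between genotypes and the interaction, 5.61%, 2.04% and 0.581% of all genes passed. In these comparisons 3, 3 and 2 of the 11 had an unadjusted p under 0.05, against 18.8%, 12.8% and 9.68% of all genes. The peptidases with the highest means besides Enpep were Ece1 (37.6 to 195 TPM), Ece2 (19.9 to 75.8 TPM) and Thop1 (16.5 to 38.8 TPM).

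Over the 5 comparisons 0% to 5.61% of all genes passed. Of 25 regulators of neuroendocrine and peptide genes, 18 were tested and 1 passed in any comparison. This was Neurod4, a neurogenic factor, with 0.134 and 0.0941 TPM in Nfib-floxed metastases, against 24.2 and 38.3 TPM in RPR2 metastases. It had 0.325, 0.0770 and 0 TPM in Nfib-floxed lung tumors, against 7.04, 2.53 and 8.71 TPM in RPR2 lung tumors. Its 5 Nfib-floxed libraries lay below its 5 RPR2 libraries, the order also seen for Grp. The log2 difference was -4.82 ± 0.56 in metastases (limma, adjusted p = 0.00222). With the compared groups alone the adjusted p was 0.133, in a fit where none of the 15503 genes passed. Over both tissues the log2 difference was -3.68 ± 0.37 (limma with mouse as a random effect, adjusted p = 0.00526). In RPR2 mice it rose in metastases by 2.27 ± 0.51 (limma, adjusted p = 0.0278), a call lost under 10 of 24 alternatives, among them the fits without the RPR2 metastasis of JHK1373, that of JHK1394, and either of the lung tumors of JHK1373 and JHK1394 (adjusted p = 0.0923, 0.239, 0.0553 and 0.0700). Regulators with high means included Nkx2-1 (161 to 421 TPM), Foxa2 (162 to 296 TPM) and Mycl (12.2 to 981 TPM), and none of these passed.

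The wider family was read beside the 10 members. Of 58 other peptide hormone and granule protein genes 25 were tested, and none passed in any of the 5 comparisons in limma. In each, 1 to 5 of them had an unadjusted p under 0.05, against 7.93% to 18.8% of all genes. The 4 with the highest means were Calca, the granin genes Chga (126 to 863 TPM) and Chgb (24.3 to 395 TPM), and Scg2 (1.76 to 723 TPM). The lowest mean of these 4 was 168 TPM (Chgb), against 10.6 TPM for Nmb, and 10 of the 58 had a mean above that of Nmb. The median of the genes' mean levels was 0.573 TPM over the 10 members and 0.817 TPM over the 58. The median log2 change of the list was 0.53 in lung tumors and 0.62 in metastases, Nfib-floxed against RPR2, beside -0.10 and 0.00 over all genes. It was -0.50 between tissues in Nfib-floxed mice and -0.42 in RPR2 mice, beside -0.05 and -0.15 over all genes. Cartpt, whose peptide regulates feeding, was chosen for mention after its values were seen. It had 653 TPM in the Nfib-floxed lung tumor of JHK997, against 1.66 to 91.1 TPM in the other 9 libraries, and that tumor was also highest for Nmb and Cck.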

How the data were processed

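RNA of 10 snap-frozen tumors was polyA-selected and sequenced, per the labels' protocols. The authors deposited TPM per gene, made with bcl2fastq 2.20, Salmon 0.12.0 and R 4.1.0 on build GRCm38, per the submitters' processing notes. The gene annotation and Salmon's options are not stated there. Salmon shares reads among similar transcripts. TPM keeps no depth, so no counting interval is given.

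The members, gene lists and tests were chosen with earlier results of these data known. Genes averaging 1 TPM or more (15503) were tested on log2(TPM + 1) using R 4.3.3 and limma 3.58.1. A model of the 4 groups (6 residual and 4.56 prior degrees of freedom, mean trend) gave 5 two-sided comparisons, adjusted over all genes. A mean genotype effect with mouse as a random effect (correlation 0.051) and a permutation test over mice were added after values were seen. The test was checked on simulated data.

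Lung tumor and metastasis carry 1 shared mouse tag in 4 mice, per the labels, which pairs them by design. Their deviations from group means correlated across genes at -0.0229 in JHK1373, -0.008 in JHK1394, 0.0426 in JHK1398 and 0.0489 in JHK1399. The paired fits are given where they change a call.

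Named genes are the 10 members, their receptors, list genes past the threshold, the 4 list genes with the highest mean, and the 3 genes most like each tested member among those averaging 5 TPM or more; some items under this rule are not reported here. The 264 listed symbols, in 6 gene lists and 16 marker lists, all matched. Alternatives were pseudocounts of 0.1 and 5, no filter or one at 5 TPM, quantile normalization, median centring, rescaling without marker genes, robust moderation, array weights, mouse as a block, the compared groups alone, and leaving out libraries. Positions are from GENCODE M21 of GRCm38. The other steps used matplotlib 3.10.9, scipy 1.17.1, pandas 2.3.3 and numpy 2.4.6 under Python 3.11.15.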

Additional observations from a re-analysis of the deposited data

Results flagged for a closer look

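The genotype difference of Npy1r, the main receptor of neuropeptide Y, was not the same in both tissues. Nfib-floxed stood above RPR2 in metastases and below it in lung tumors, and a test of the difference between those differences gave 3.71 on the log2 scale (limma, adjusted p = 0.0437).

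For Enpep, a peptidase gene, the same test gave 5.23 (limma, adjusted p = 0.0331). Both calls are lost in most fits that leave out 1 library, as given above with those libraries.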

How the results depend on the processing

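The count of members past the threshold was 0 in each of the 5 comparisons and stayed 0 under all 117 combinations of comparison and alternative, the paired fits with mouse as a random or fixed replicate block included. Over the same alternatives, with those of the mean genotype effect, none of 272 values of single members changed sign or passed. Leaving out 1 library at a time moved the count nowhere (0 to 0). Grp and Gal have no value under a filter of 5 TPM, because their means lie below it, and a fixed mouse block cannot be used for a comparison of genotypes. With mouse as a fixed replicate block, the calls of Neurod4 and Sort1 between tissues of RPR2 mice and the interactions of Npy1r and Enpep were lost. These calls are of genes that are not members. The call of Pcsk1 was also lost with no filter and with the compared groups alone (adjusted p = 0.0941 and 0.0511), and that of Ace with no filter (0.0573). With the compared groups alone, none of the 15503 genes passed between genotypes in metastases, Enpep and Neurod4 included (0.163 and 0.133). Conversely, Npy1r passed between genotypes in metastases under 5 of 23 alternatives, among them quantile normalization (0.0447) and median centring (0.0371). The cause was not tested. Depth is unknown, so a level of 0 shows only what the table lists. Each group holds 2 or 3 libraries, and the lung tumors of JHK1398 and JHK1394 stood apart by markers of normal lung.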
